A study of Mus musculus with 6 samples.

Results

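Interferon-stimulated genes are the genes that cells switch on after they sense interferon, and the guanylate binding proteins are a family of large GTPases among them. A set of 37 such genes was taken by symbol from a table of 29072 genes of the mouse, measured in the interscapular brown fat depot, a thermogenic fat pad of the upper back. All 37 had a row in the table. The study compared 3 libraries of UCP1(-/-) mice, called knockout here, with 3 libraries of wildtype mice, all on the C57BL/6J background. Ucp1 encodes the protein that lets brown fat mitochondria turn fuel into heat. The labels give no age, sex, housing temperature or diet, and they name no promoter, Cre line or further allele. Nor do they say whether each replicate was a different animal, and each p-value is therefore set against a spread between libraries that may be technical.

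Interferons are secreted signals of antiviral and antibacterial defence. Type I interferons act through the receptor chains IFNAR1 and IFNAR2 and the kinases JAK1 and TYK2, which set off a complex with STAT2 and IRF9 that binds the interferon-stimulated response element in promoters. Type II interferon, made mainly by T and NK cells, acts on the gamma-activated site. The induced genes encode sensors of foreign nucleic acid, effectors that block viral replication, GTPases that attack vacuoles holding microbes, and parts of the antigen presentation pathway. In adipose tissue they can be expressed by adipocytes, by resident macrophages and by other cells of the depot.

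Interferon response elements are known from the promoters of many such genes, and stretches that match their core letters are shown for 13 of the 37. They come from RefSeq promoter windows of mouse assembly GRCm38.p6, each reaching from 250 bases before to 50 bases after a transcript start, and are written 5′ to 3′ on the strand of the gene. Capitals mark matches to the core of the interferon-stimulated response element, which is GAAA, any 2 bases and GAAA again, read on either strand. Capitals in Irf1 mark a match to TTCNNNGAA, the core of the gamma-activated site, because its window holds no response element core. Adjoining or overlapping matches are joined into a single run of capitals.
Isg15: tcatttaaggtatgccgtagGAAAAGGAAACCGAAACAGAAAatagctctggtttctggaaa
Irgm1: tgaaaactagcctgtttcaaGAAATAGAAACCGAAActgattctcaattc
Oas1a: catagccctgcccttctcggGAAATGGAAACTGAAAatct
Bst2: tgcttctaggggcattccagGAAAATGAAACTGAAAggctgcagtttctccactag
Gbp3: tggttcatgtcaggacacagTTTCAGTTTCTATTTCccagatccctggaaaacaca
Ifit1: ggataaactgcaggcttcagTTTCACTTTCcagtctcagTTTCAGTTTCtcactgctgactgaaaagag
Ifit3: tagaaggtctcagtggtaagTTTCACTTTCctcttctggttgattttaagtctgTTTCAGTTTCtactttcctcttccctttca
Gbp2: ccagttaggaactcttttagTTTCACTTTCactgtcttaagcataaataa
Gbp7: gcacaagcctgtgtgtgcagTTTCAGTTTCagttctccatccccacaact
Igtp: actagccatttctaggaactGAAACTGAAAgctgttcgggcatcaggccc
Rsad2: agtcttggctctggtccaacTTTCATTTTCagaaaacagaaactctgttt
Stat2: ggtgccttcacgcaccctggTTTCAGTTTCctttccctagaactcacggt
Irf1: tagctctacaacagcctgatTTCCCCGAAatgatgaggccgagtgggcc

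On the plus strand of GRCm38.p6, the stretches of Gbp7, Gbp3 and Gbp2 lie at chr3:142530263-142530312, chr3:142559979-142560034 and chr3:142620584-142620633. Those of Ifit3 and Ifit1 lie at chr19:34583353-34583436 and chr19:34640765-34640833, that of Irf1 at chr11:53769904-53769952, that of Igtp at chr11:58199502-58199551 and that of Stat2 at chr10:128270256-128270305. On the minus strand, Isg15 lies at chr4:156200855-156200916, Oas1a at chr5:120907526-120907565, Irgm1 at chr11:48871421-48871470, Rsad2 at chr12:26456543-26456592 and Bst2 at chr8:71537567-71537622. All 13 stretches are upstream of the transcript start.

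A promoter window was found for 25 of the 37 genes, and 14 of these 25 (56%) held the response element core, against 3.99% of 27025 genes and 3.44% of 32851 windows of the same 300 bases. The motif was present at least 2 times in 7 of the 14 genes. In Ddx58 and Ifih1 it lay after the transcript start and is not shown. TTCNNNGAA was found in 7 of the 25 genes (28%), against 9.55% of all genes. No window was listed for Oas2, Mx2, Dhx58, Gbp6, Usp18, Rtp4, Zbp1, Parp9, Parp14, Nlrc5, Iigp1 and Tap2. A match is a description of the letters and not a binding site.

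The deposited values were RPKM, read counts scaled to transcript length and library total. The spacing of low values implied 15800000 to 18000000 reads per library. Ucp1, the targeted gene, stood at 375, 389 and 372 RPKM in the knockout libraries and at 3096, 1714 and 3151 RPKM in the wildtype libraries, so the labels matched the gene. The brown adipocyte gene Cidea was abundant in both groups, with 1317 ± 47.3 RPKM in the knockout group and 1394 ± 49.4 RPKM in the wildtype group (mean ± SD of 3). A group mean of 1 RPKM or more was reached by 11562 genes, of which 804 (6.95%) were higher and 83 (0.718%) were lower in knockout brown fat at an adjusted p of 0.05 (limma on log2(RPKM + 1), Benjamini-Hochberg over all tested genes). Median-of-ratios scaling, which equalises the typical gene between libraries, moved the median log2 change of all tested genes from 0.075 to -0.02 and the share of calls that were higher from 90.6% to 73.0%. Each change below is therefore given as deposited and, where it alters a call, after scaling.

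The 37 interferon-stimulated genes were higher as a group in knockout brown fat, by a modest amount. The set was chosen with earlier results of these data known, so the shares below describe it and do not test it. The mean of the knockout libraries exceeded that of the wildtype libraries for 37 of 37 genes (65.6% of 20527 genes without a filter), and for 36 of 37 after scaling (49.8%), where Tap2 was the exception. The knockout over wildtype ratio of mean RPKM had a median of 1.53, with a range from 1.03 in Tap2 to 2.91 in Oas1a, and a median of 1.42 after scaling. The lowest knockout library lay above the highest wildtype library for 29 of 37 genes, or 78.4%, against 19.7% of all genes. After scaling this held for 25 genes, or 67.6%, against 11.4%. Isg15, Oas2, Irf1, Stat2, Dhx58, Gbp2, Ifi44 and Tap2 overlapped as deposited, and Irf7, Ifi35, Trim25 and Igtp overlapped in addition after scaling.

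Only part of this shift passed the test gene by gene. Of the 37 genes, 29 had a mean of at least 1 RPKM in both groups. Ifit1, Gbp6, Usp18, Zbp1 and Ifi44 reached it through the knockout group alone, and Oas1a, Oas2 and Mx2 fell short of it. Of the 34 tested, 8 rose at an adjusted p of 0.05 (23.5%, against 6.95% of all tested genes): Ddx58, Gbp3, Gbp7, Xaf1, Parp9, Dtx3l, Nlrc5 and Iigp1. None fell, and 26 did not pass, with limma adjusted p from 0.0525 to 0.774. After median-of-ratios scaling 3 of 33 passed (9.09%, against 4.09%), namely Gbp3, Parp9 and Iigp1. The same 3 passed among all 37 when no filter was applied (8.11%, against 3.32%). With no filter and scaling together only Parp9 passed (2.7%, against 2.44%), a share near the background. Limma-voom on reads recovered from the values could test 24 of the genes, of which 5 passed (20.8%, against 5.53%). Leaving out knockout replicate 1, knockout replicate 3 or wildtype replicate 1 left 3 calls, leaving out knockout replicate 2 or wildtype replicate 3 left 5, and leaving out wildtype replicate 2 left 7. The median log2 change of the 34 genes was 0.42, against 0.075 over all tested genes, and after scaling it was 0.34, against -0.02. The log2 values are of RPKM + 1, which understates the change of genes near or below 1 RPKM.

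**Figure D1:**
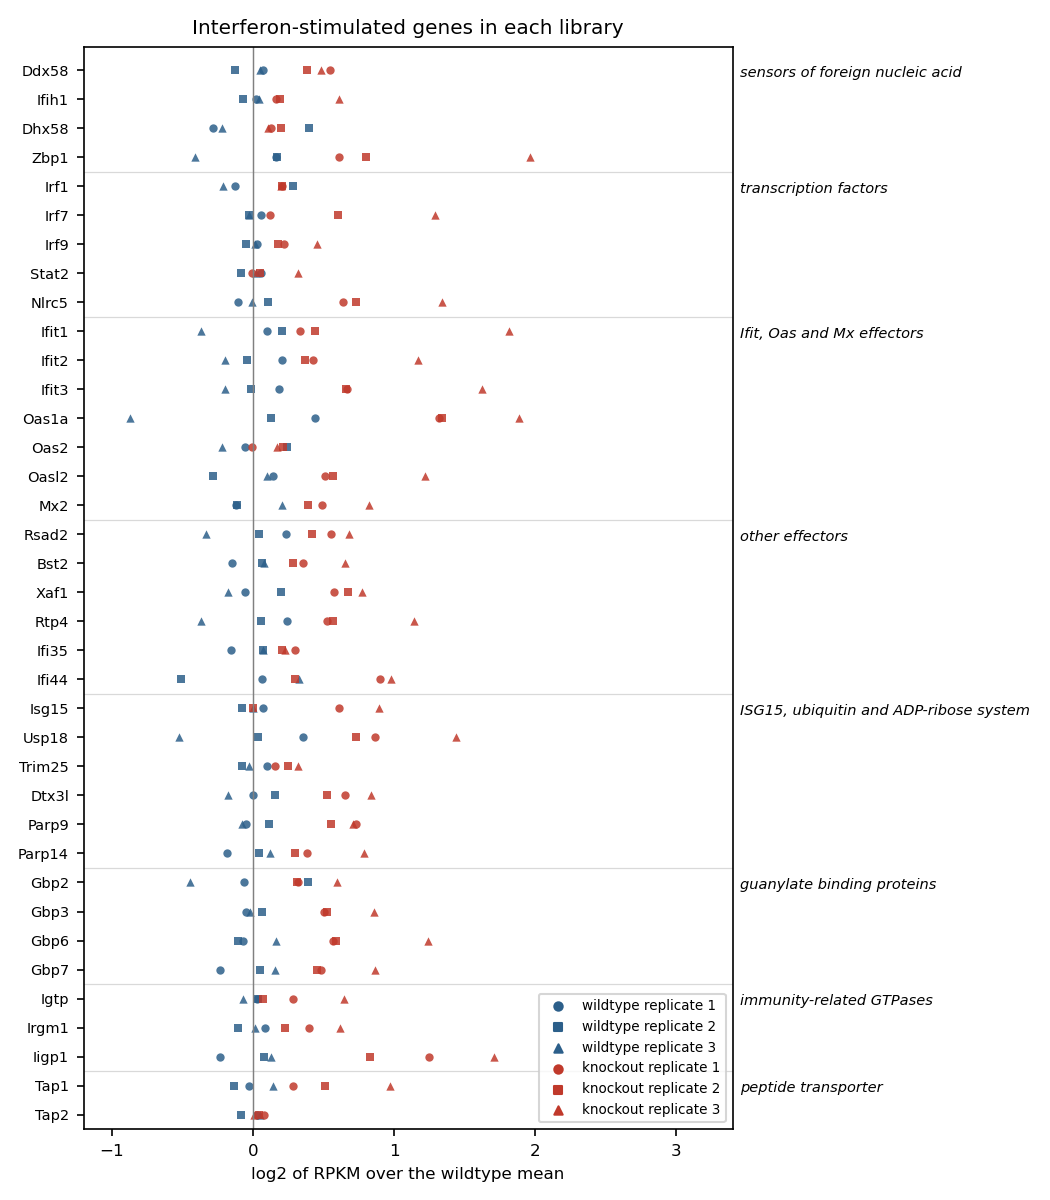
Each of the 37 genes is a line, and each point is 1 library, plotted as log2 of its RPKM over the mean of the 3 wildtype libraries. Knockout libraries are red and wildtype libraries blue, with a marker shape for each replicate, and genes are grouped by role. Knockout replicate 3 (red triangle) is the highest library for 30 of the 37 genes, and the knockout and wildtype points overlap for 8.

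Among 4 sensors of foreign nucleic acid, Ddx58 rose, too few to be read against 6.95% of all tested genes. Ddx58 encodes RIG-I, the cytosolic helicase that detects viral RNA ends. It stood at 4.64, 4.14 and 4.43 RPKM in the knockout libraries and at 3.34, 2.90 and 3.29 RPKM in the wildtype libraries. The knockout libraries were close to each other and all above the wildtype libraries. The means were 4.4 ± 0.249 and 3.18 ± 0.239 RPKM (SD, n = 3 each), and the log2 change was 0.37 (SE 0.08, limma adjusted p = 0.0324; 0.0888 after scaling). Ifih1, which encodes the long double-stranded RNA sensor MDA5, had a mean of 1.78 ± 0.324 RPKM in knockout and 1.41 ± 0.0588 RPKM in wildtype and did not pass (limma adjusted p = 0.289). Dhx58, the related helicase LGP2, had means of 1.67 ± 0.053 and 1.51 ± 0.417 RPKM, and its highest value was in wildtype replicate 2 (limma adjusted p = 0.661). Zbp1, a sensor of left-handed nucleic acid that can trigger cell death, stood at 0.639, 0.730 and 1.63 RPKM in knockout and at 0.470, 0.473 and 0.315 RPKM in wildtype. The groups of Zbp1 did not overlap, but knockout replicate 3 was far above its group, and the log2 change of 0.46 (SE 0.18) did not pass (limma adjusted p = 0.160).

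Of 5 transcriptional regulators, Nlrc5 was the 1 that rose, too few to be read against 6.95% of all tested genes. Nlrc5, the activator of class I histocompatibility genes, stood at 1.56, 1.67 and 2.55 RPKM in the knockout libraries and at 0.934, 1.08 and 1.0 RPKM in the wildtype libraries. All knockout libraries lay above the wildtype libraries, with replicate 3 well above the other two. Its log2 change of 0.53 (SE 0.13) passed as deposited (limma adjusted p = 0.0476) and not after scaling (0.0856), and the call was lost in 19 of 21 alternatives. Irf7, the factor that amplifies type I interferon production, stood at 2.90, 4.05 and 6.53 RPKM in knockout and at 2.77, 2.62 and 2.61 RPKM in wildtype. Its knockout libraries were widely spread, the lowest just above wildtype, and the log2 change of 0.53 (SE 0.20) did not pass (limma adjusted p = 0.161). Irf9 and Stat2, the DNA-binding and activating subunits of the type I complex, had knockout over wildtype ratios of 1.22 and 1.09. Irf1, an early target of type II interferon whose match to the gamma-activated site letters is shown above, had means of 11.9 ± 0.0281 RPKM in knockout and 10.3 ± 1.96 RPKM in wildtype. These 3 factors did not pass, with limma adjusted p of 0.138, 0.555 and 0.333 for Irf9, Stat2 and Irf1.

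Classical antiviral effectors of the Ifit, Oas and Mx families had the highest median ratio of the 8 role groups, 1.75 over 7 genes. None of the 4 tested passed (0 of 4, limma, against 6.95% of all tested genes). The Ifit proteins bind foreign RNA and block its translation. Ifit1 stood at 1.25, 1.35 and 3.49 RPKM in the knockout libraries and at 1.07, 1.14 and 0.769 RPKM in the wildtype libraries. Ifit3 stood at 1.62, 1.62 and 3.16 RPKM in knockout and at 1.16, 1.02 and 0.893 RPKM in wildtype. Ifit2 stood at 1.96, 1.89 and 3.29 RPKM in knockout and at 1.69, 1.42 and 1.28 RPKM in wildtype. In all 3 genes the groups did not overlap, knockout replicates 1 and 2 were near each other and not far above wildtype, and knockout replicate 3 was much higher. Their log2 changes were 0.53 (SE 0.24), 0.60 (SE 0.18) and 0.44 (SE 0.16) for Ifit1, Ifit3 and Ifit2, with limma adjusted p of 0.231, 0.0847 and 0.136. Oasl2, an oligoadenylate synthetase-like protein, was likewise highest in knockout replicate 3. It stood at 1.53, 1.6 and 2.51 RPKM in knockout and at 1.19, 0.884 and 1.16 RPKM in wildtype, with a log2 change of 0.46 (SE 0.14, limma adjusted p = 0.0931).

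The 3 remaining effectors of this kind were too low to be tested with the filter. Oas1a, a synthase of the nucleotide that activates RNase L, stood at 0.297, 0.302 and 0.440 RPKM in knockout and at 0.162, 0.130 and 0.0651 RPKM in wildtype. Its knockout libraries were all higher, but these values correspond to 9, 9 and 15 reads against 5, 4 and 2 reads. Without a filter its log2 change was 0.27 (SE 0.06, limma adjusted p = 0.0551). Mx2, a dynamin-like GTPase, rested on 11 to 17 reads per knockout library and 8 to 10 reads per wildtype library, with a ratio of 1.5. Oas2 had means of 0.975 ± 0.0766 RPKM in knockout and 0.891 ± 0.147 RPKM in wildtype, and its groups overlapped.

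Among the 6 other effectors, Xaf1 rose as deposited (6.95% of all tested genes) and 4 more were higher without overlap (19.7% of all genes). After scaling Ifi35 overlapped, and 0 of the 6 passed. Xaf1, a partner and inhibitor of the apoptosis inhibitor XIAP, stood at 1.75, 1.88 and 2.01 RPKM in the knockout libraries and at 1.13, 1.35 and 1.04 RPKM in the wildtype libraries. The groups were well separated and neither had an outlying library. The log2 change was 0.41 (SE 0.09, limma adjusted p = 0.0371; 0.0848 after scaling). Rsad2 encodes viperin, an enzyme that makes a chain terminator of viral RNA. It stood at 6.07, 5.52 and 6.62 RPKM in knockout and at 4.85, 4.25 and 3.28 RPKM in wildtype, and its log2 change of 0.47 (SE 0.12) narrowly missed the threshold (limma adjusted p = 0.0542). Bst2 encodes tetherin, which holds budding virus at the cell surface, and had the highest knockout mean of the 37 genes. It stood at 18.1, 17.2 and 22.2 RPKM in knockout and at 12.7, 14.7 and 14.9 RPKM in wildtype, with a log2 change of 0.41 (SE 0.11, limma adjusted p = 0.0561). Bst2 and Nlrc5 share a chromosome with Ucp1, but neither is within 10 Mb of it. Rtp4, a receptor chaperone induced by interferon, stood at 3.41, 3.50 and 5.22 RPKM in knockout and at 2.80, 2.47 and 1.84 RPKM in wildtype (log2 change 0.58, SE 0.16, limma adjusted p = 0.0658). Knockout replicate 3 was again the highest library for Rtp4. Ifi35 had means of 9.52 ± 0.311 and 8.03 ± 0.716 RPKM, and Ifi44 of 1.22 ± 0.290 and 0.725 ± 0.202 RPKM, in knockout and wildtype. Neither passed, with limma adjusted p of 0.146 for Ifi35 and 0.147 for Ifi44.

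The partners Parp9 and Dtx3l both rose, and Parp9 had the smallest adjusted p of the 37 genes. Parp9 belongs to the ADP-ribosyltransferase family and works in a complex with the ubiquitin ligase Dtx3l. Parp9 stood at 7.58, 6.72 and 7.5 RPKM in the knockout libraries and at 4.43, 4.96 and 4.35 RPKM in the wildtype libraries. The groups were far apart, and knockout replicate 1, not 3, was the highest. The means were 7.27 ± 0.476 and 4.58 ± 0.332 RPKM (SD, n = 3 each), a ratio of 1.59, with a log2 change of 0.57 (SE 0.08, limma adjusted p = 0.00439; 0.0162 after scaling). Dtx3l stood at 3.69, 3.38 and 4.19 RPKM in knockout and at 2.35, 2.62 and 2.08 RPKM in wildtype, again without overlap. Its log2 change was 0.50 (SE 0.10, limma adjusted p = 0.0195; 0.0529 after scaling). The annotated spans of Parp9 and Dtx3l overlap, and the use of strand in counting is not given in the sources used here, so part of their reads may be shared. The same limit holds for Stat2 with Apof, Ifit1 with Ifit1bl1 and Rtp4 with Masp1. The spans of Nlrc5, Gbp3, Isg15, Ifih1, Dhx58, Gbp2, Usp18 and Trim25 also overlap another annotated gene. Parp14, a further ADP-ribosyltransferase, had means of 4.51 ± 0.851 RPKM in knockout and 3.18 ± 0.335 RPKM in wildtype (limma adjusted p = 0.0938).

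Isg15, the ubiquitin-like modifier, and the enzymes around it did not pass. Isg15 stood at 4.46, 2.93 and 5.43 RPKM in knockout and at 3.08, 2.77 and 2.93 RPKM in wildtype. Knockout replicate 2 lay within the wildtype range while the other knockout libraries were above it (limma adjusted p = 0.185). Usp18, which removes ISG15 from proteins and dampens signalling at the type I receptor, stood at 1.73, 1.57 and 2.57 RPKM in knockout and at 1.21, 0.974 and 0.660 RPKM in wildtype. These values correspond to 44 to 82 reads per knockout library and 19 to 35 reads per wildtype library, and the groups did not overlap. Usp18 was tested through its knockout mean alone, and its log2 change of 0.60 (SE 0.15) did not pass (limma adjusted p = 0.0525). Without a filter the limma adjusted p was 0.107, and 0.158 with scaling as well. Trim25, a ubiquitin ligase that also conjugates ISG15, had means of 8.17 ± 0.479 and 6.90 ± 0.441 RPKM (limma adjusted p = 0.148).

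Of the 4 guanylate binding proteins, Gbp3 and Gbp7 rose as deposited (6.95% of all tested genes), and Gbp3 alone passed after scaling (4.09%). With 4 genes these counts are too small to be read against those shares. Gbp3 stood at 6.06, 6.15 and 7.73 RPKM in the knockout libraries and at 4.13, 4.46 and 4.20 RPKM in the wildtype libraries. The wildtype libraries were tightly grouped and all below the knockout libraries. The means were 6.65 ± 0.943 and 4.26 ± 0.174 RPKM (SD, n = 3 each), a ratio of 1.56, with a log2 change of 0.53 (SE 0.10, limma adjusted p = 0.0146; 0.0423 after scaling). Gbp7 stood at 4.50, 4.42 and 5.87 RPKM in knockout and at 2.74, 3.33 and 3.59 RPKM in wildtype. Its groups did not overlap, and its log2 change of 0.49 (SE 0.12) passed as deposited only (limma adjusted p = 0.046; 0.104 after scaling). Gbp6 stood at 1.43, 1.45 and 2.29 RPKM in knockout and at 0.922, 0.899 and 1.08 RPKM in wildtype, with no overlap, and did not pass (log2 change 0.46, SE 0.13, limma adjusted p = 0.0776). Gbp2 stood at 10.7, 10.6 and 12.9 RPKM in knockout and at 8.18, 11.2 and 6.26 RPKM in wildtype. Its wildtype libraries were the most spread of this family and wildtype replicate 2 lay within the knockout range (limma adjusted p = 0.203). The promoters of Gbp2 and Gbp7 shown above hold a single response element core each, and that of Gbp3 holds 2. Guanylate binding proteins share long stretches of sequence, so reads may be split between them and each value is uncertain.

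Iigp1 rose the most of the genes that passed. It encodes an immunity-related GTPase that coats vacuoles holding parasites. It stood at 8.29, 6.22 and 11.4 RPKM in the knockout libraries and at 2.97, 3.68 and 3.82 RPKM in the wildtype libraries. The knockout libraries were widely spread, yet the lowest was well above every wildtype library. The means were 8.64 ± 2.61 and 3.49 ± 0.455 RPKM (SD, n = 3 each), a ratio of 2.47, with a log2 change of 1.07 (SE 0.18, limma adjusted p = 0.00922; 0.0182 after scaling). Without knockout replicate 3 the ratio was 2.08. Irgm1 and Igtp, which regulate the other GTPases of the family on host membranes, had ratios of 1.34 and 1.28 and did not pass (limma adjusted p of 0.0718 and 0.193).

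The peptide transporter subunits parted ways in size. Tap1 and Tap2 together carry peptides into the endoplasmic reticulum for class I molecules. Tap1 stood at 3.79, 4.42 and 6.11 RPKM in knockout and at 3.05, 2.84 and 3.44 RPKM in wildtype, without overlap, and its log2 change of 0.47 (SE 0.14) did not pass (limma adjusted p = 0.0869). Tap2 had means of 17.4 ± 0.427 and 16.9 ± 0.812 RPKM, with a log2 change of 0.04 as deposited and -0.06 after scaling (limma adjusted p of 0.774 and 0.621). The difference between the changes of the 2 subunits was not tested.

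**Figure D2:**
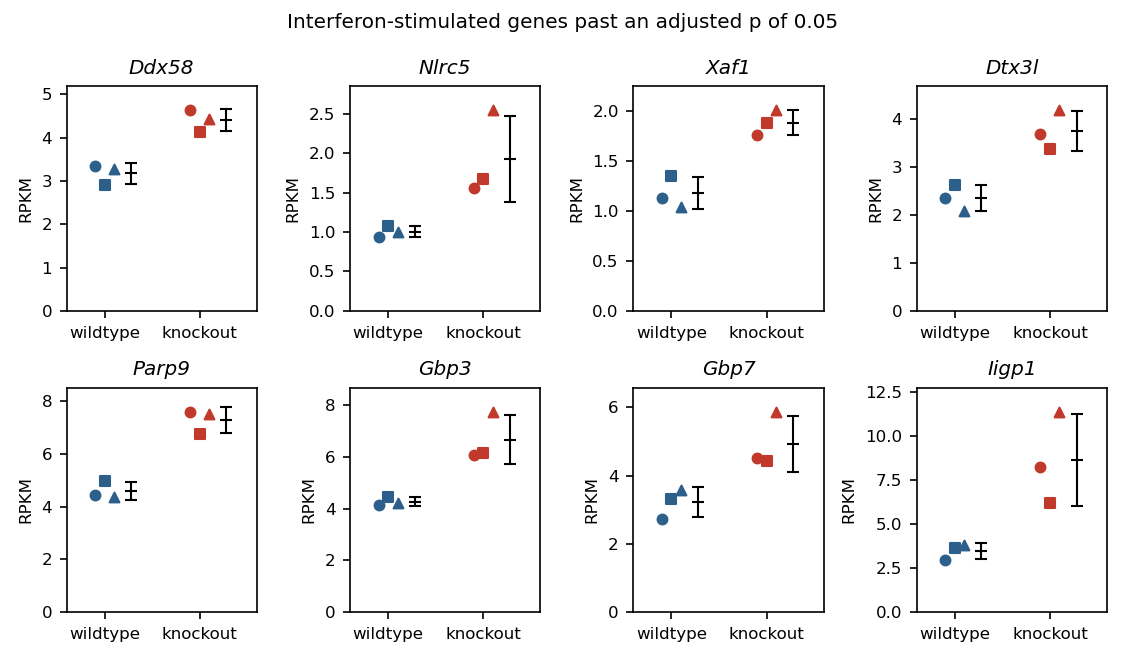
RPKM of the 8 genes that passed an adjusted p of 0.05 as deposited, with wildtype libraries in blue and knockout libraries in red, a marker shape for each replicate, and a black bar at the mean with whiskers of 1 SD (n = 3). The lowest knockout library lies above the highest wildtype library in each panel, and Iigp1 has the widest gap, from 3.82 to 6.22 RPKM.

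**Figure D3:**
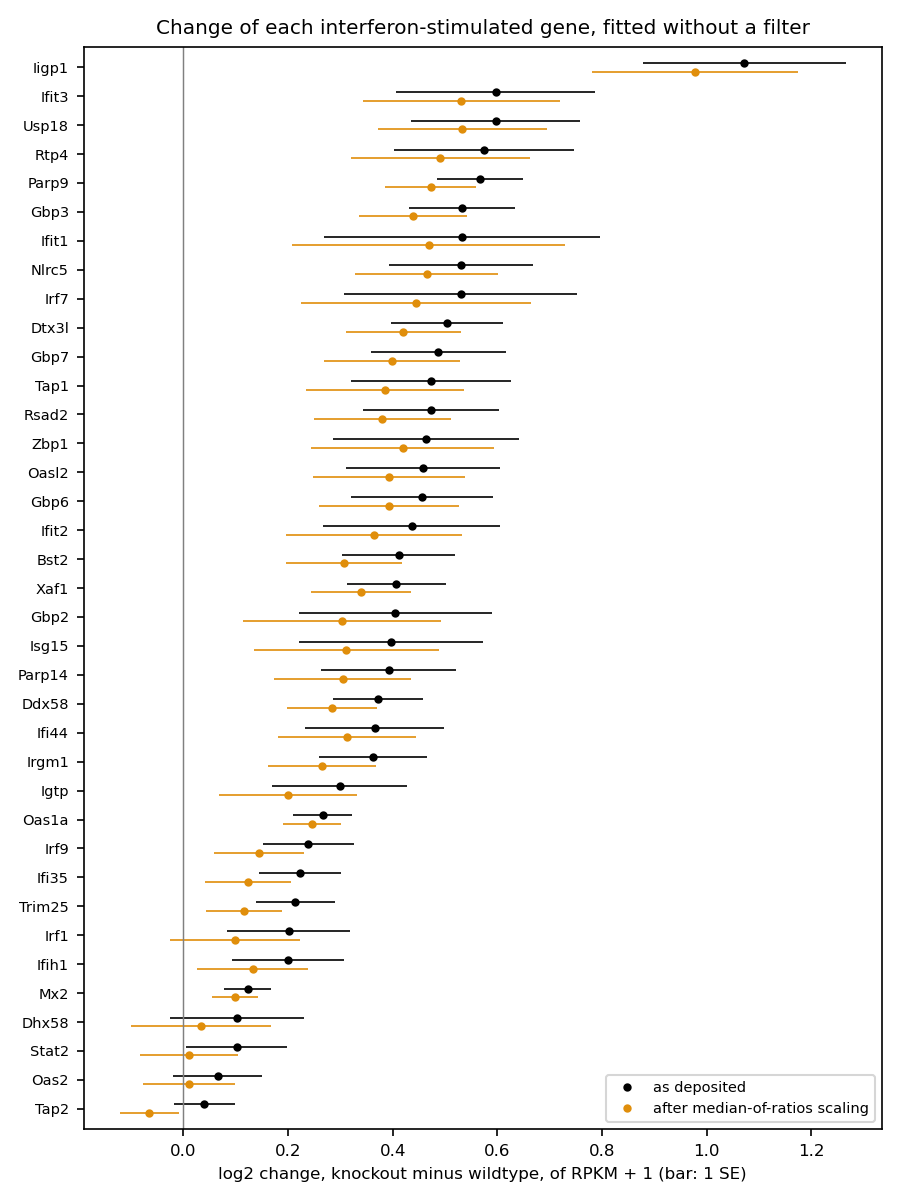
Fitted log2 change of RPKM + 1, knockout minus wildtype, for all 37 genes without a filter on low values, as deposited (black) and after median-of-ratios scaling (orange), with bars of 1 SE. Every point as deposited lies above 0, Iigp1 stands at 1.07, and Tap2 is the gene that turns below 0 after scaling, at -0.06.

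Knockout replicate 3 stood apart from the other knockout libraries for these genes. It was the highest of the 6 libraries for 30 of the 37 genes, and for 23 of the 29 with at least 1 RPKM in both groups (79.3%, against 19.1% of such genes). Relative to the wildtype mean, the median of the 37 genes was 1.40, 1.31 and 1.77 in knockout replicates 1, 2 and 3, while the median over all tested genes was 1.06, 1.08 and 1.06. The level of replicate 3 was at least 1.5 times the mean of the other two for 11 of the genes. Of these, Ifit1, Gbp6, Usp18 and Zbp1 had passed the filter through the knockout group alone. Among the 29 genes with at least 1 RPKM in both groups it held for 7 (24.1%, against 1.16% of such genes). The largest such ratios were 2.69 in Ifit1, 2.38 in Zbp1, 1.95 in Ifit3, 1.88 in Irf7 and 1.71 in Ifit2. They were close to 1 in Ddx58 (1.01), Irf1 (0.997), Ifi35 (0.984), Tap2 (0.963) and Dhx58 (0.963). Among the RNA helicases, Ifih1 stood between, at 1.35, and no difference between these genes was tested.

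Values without knockout replicate 3 were smaller. Knockout replicates 1 and 2 both lay above every wildtype library for 29 of the 37 genes (78.4%, against 27.4% of all genes), and for 25 after scaling (67.6%, against 15.8%). Without replicate 3 the median ratio was 1.32, and the median log2 change of the genes tested was 0.31, against 0.079 over all genes. Gbp3, Parp9 and Iigp1 passed in that fit, 3 of 33 tested (9.09%, against 4.7% of all tested genes). After scaling as well the median was 0.22, against -0.016, and Iigp1 alone passed, 1 of 33 (3.03%, against 3.06%), which is the background share.

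Further genes of the interferon pathway were also read. Of 102 further pathway genes in the table, the knockout mean as deposited was the higher for 83, against 65.6% of 20527 genes without a filter. Of 68 tested, 9 rose and none fell as deposited (limma, against 6.95% and 0.718% of all tested genes), and 4 rose and 1 fell after scaling (against 4.09% and 1.52%). As deposited, the 9 calls became 3 without knockout replicate 1 or 3, 4 without knockout replicate 2 and 5 without wildtype replicate 1. The median log2 change over the 68 was 0.21 as deposited and 0.11 after scaling. Interferons themselves were barely seen: Ifnb1, Ifna2, Ifna4, Ifnk, Ifnl2 and Ifnl3 were listed at 0 in all 6 libraries. Ifng, the type II interferon, was listed at 0 in the wildtype libraries and at 0.103, 0.105 and 0.0459 RPKM in the knockout libraries, a level of very few reads for which no fold is given. A gene listed at 0 in this kind of table need not be silent.

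Among receptors and signal transducers 10 genes were tested, too few to set their counts apart from the background. Il10rb fell after scaling (1.52% of all genes), and 1 gene rose as deposited (6.95% of all genes): Ifngr2, a chain of the type II receptor, from 5.02 ± 0.453 to 6.80 ± 0.394 RPKM in knockout (limma adjusted p = 0.0353; 0.107 after scaling). None of 11 tested sensors and upstream adaptors and none of 4 tested negative regulators passed in limma, and these numbers are likewise too small to be read against 6.95%.

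Of 26 other antiviral effectors tested, 6 rose (23.1%, against 6.95% of all tested genes), and the difference from the other pathway lists was not tested. Ifi27l2a, a small mitochondrial and nuclear envelope protein induced by interferon, was the most abundant of the 9 called genes, at 204, 188 and 245 RPKM in the knockout libraries and at 125, 106 and 112 RPKM in the wildtype libraries. All knockout libraries were high, and the log2 change of 0.88 (SE 0.11) passed as deposited and after scaling (limma adjusted p of 0.00213 and 0.00471) and in all 20 alternatives. Rnf213, a giant ubiquitin ligase, rose from 7.49 ± 0.320 to 11.0 ± 1.18 RPKM, and Samhd1, which depletes nucleotides needed by viruses, rose from 5.55 ± 0.330 to 8.26 ± 0.877 RPKM (SD, n = 3 each). Tor3a, an ATPase of the endoplasmic reticulum, rose from 2.73 ± 0.293 to 4.21 ± 0.367 RPKM. These 3 also passed after scaling, with limma adjusted p of 0.0477, 0.0416 and 0.0426. Their calls were lost in 7 of 21 alternatives for Rnf213, 7 of 21 for Samhd1 and 11 of 21 for Tor3a. Lgals9, a secreted galectin, rose from 15 ± 2.22 to 21.4 ± 0.798 RPKM, and Cmpk2, a mitochondrial nucleotide kinase that neighbours Rsad2, rose from 2.41 ± 0.145 to 3.32 ± 0.174 RPKM, both as deposited only. Among other GTPases and chemokines, Ifi47 (1.25 ± 0.233 to 2.43 ± 0.696 RPKM) and the T cell attractant Cxcl9 (5.12 ± 0.792 to 8.68 ± 1.58 RPKM) rose as deposited only, with limma adjusted p of 0.0491 and 0.0249. For the other guanylate binding proteins and immunity-related GTPases the knockout mean as deposited was the higher in 12 of 12 (65.6% of all genes). Only 5 of them were tested, of which 1 passed as deposited and 0 after scaling, too few to be read against 6.95%.

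Markers of immune cells, stroma and muscle differed between the libraries as well. Of 11 macrophage markers in the table, the knockout mean was the higher for 11 and the groups did not overlap for 5 (65.6% and 19.7% of all genes). After scaling, 11 were still higher (49.8%) and 3 did not overlap (11.4%). Their summed level was 76.8 to 105 RPKM in knockout and 46.9 to 74.9 RPKM in wildtype. Of 9 tested, Mpeg1 rose (limma adjusted p = 0.00576), and none was listed at 0. With 9 genes this count is too small to be read against 6.95% of all tested genes. The macrophage sum was 76.8, 105 and 102 RPKM in knockout replicates 1, 2 and 3. The sum of the 37 interferon-stimulated genes in these libraries was 181, 173 and 221 RPKM. The 13 T and NK cell markers in the table were all too low to be tested. Their summed level was 3.0, 2.13 and 7.43 RPKM in knockout replicates 1, 2 and 3 and 1.99 to 2.50 RPKM in wildtype. As deposited, the knockout mean was the higher for 12 of the 13 (65.6% of all genes) and the groups did not overlap for 3 (19.7%). Nkg7 and Gzmb gave 1.57 and 1.21 RPKM of the replicate 3 sum, while Klrb1c was lowest in that library. The 8 dendritic cell markers summed to 7.0 to 8.11 RPKM in knockout and 6.0 to 6.36 RPKM in wildtype, most of it from Zbtb46. Of these 8, the knockout mean was the higher for 7 (65.6% of all genes) and the groups did not overlap for 5 (19.7%). After scaling, 6 were higher (49.8%) and 3 did not overlap (11.4%). Ratios were 3.37 in Flt3, 2.33 in Xcr1 and 1.69 in Clec9a, from low wildtype means of 0.0392, 0.092 and 0.584 RPKM. Siglech went the other way, with a ratio of 0.897. Zbtb46, the only dendritic cell marker tested, had a ratio of 1.08 and did not pass (limma adjusted p = 0.527). The 7 stromal markers all had the higher mean in knockout, as deposited (65.6% of all genes) and after scaling (49.8%). The groups did not overlap for 1 of the 7, as deposited (19.7% of all genes) and after scaling (11.4%). Their sums overlapped, at 186 to 217 RPKM in knockout and 143 to 191 RPKM in wildtype. Col3a1, a fibrillar collagen, rose as deposited (limma adjusted p = 0.0353) and not after scaling. The 8 endothelial markers summed to 148 to 165 RPKM in knockout and 143 to 157 RPKM in wildtype, with 4 higher.

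All 12 skeletal muscle markers rose (6.95% of all tested genes), with summed levels of 1629 to 1844 RPKM in knockout and 59.5 to 272 RPKM in wildtype. In wildtype replicates 1, 2 and 3 the muscle sum was 241, 272 and 59.5 RPKM, and the sum of the 37 genes was 138, 145 and 136 RPKM. The part of macrophages, dendritic, T and NK, stromal and muscle cells in the changes of the interferon-stimulated genes was not tested. In whole tissue, more cells of a type and more RNA per cell cannot be told apart.

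**Figure D4:**
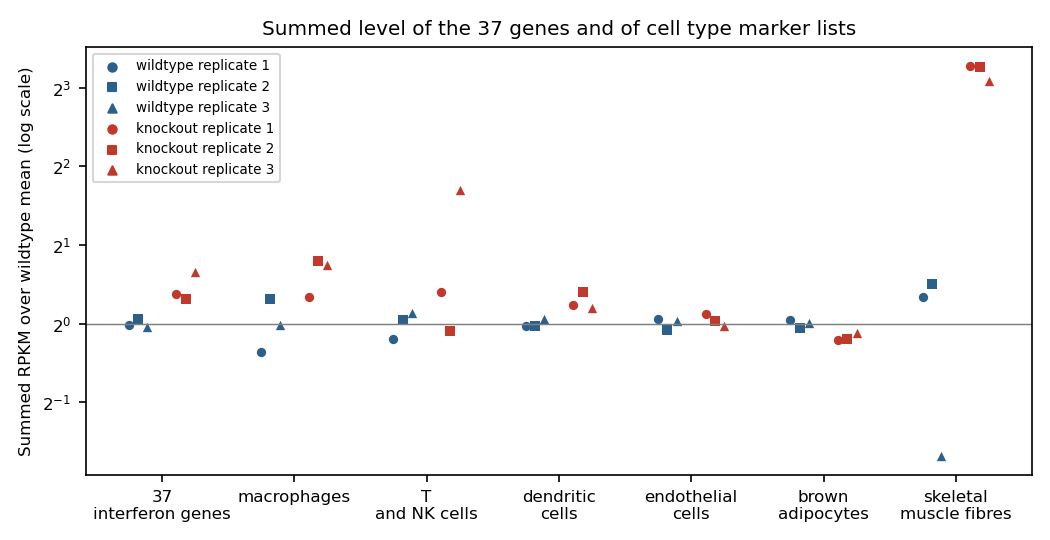
Summed RPKM of the 37 interferon-stimulated genes and of 6 marker lists in each library, divided by the mean of the wildtype libraries, on a log scale. Wildtype libraries are blue and knockout libraries red, with a marker shape for each replicate. Knockout replicate 3 is the highest knockout library for the 37 genes, T and NK cells and brown adipocytes. Knockout replicate 2 is the highest for macrophages and dendritic cells, and knockout replicate 1 for endothelial cells and skeletal muscle fibres. Muscle markers differ far more than any other list.

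Genes outside the set that carry the same promoter letters had changes close to those of all genes. Of 288 tested genes outside the set with the response element core in their promoter window, 24 rose as deposited (8.33%), against 6.88% of 8808 with a window, and the median log2 change was 0.08 against 0.076. After scaling the shares were 4.15% and 3.98%, and both medians were -0.019. Within the set, the median knockout over wildtype ratio was 1.42 for the 14 genes with the motif, 1.6 for the 11 with a window and no motif, and 1.65 for the 12 with no window listed. The ratios spanned 1.09 to 2.91 with the motif, 1.15 to 1.75 without it and 1.03 to 2.47 with no window, so the highest ratio with the motif, in Oas1a, was above any without it while the median was lower. No test of this difference was made.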

How the data were processed

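Of the brown fat depot, 3 knockout and 3 wildtype libraries of total RNA were prepared with a TruSeq kit, per the labels' protocols. CASAVA and bcl2fastq are named, per the submitters' processing notes. Aligner, counting tool, build and use of strand: not given in the sources used here. In the deposited table the authors give a value per library for 168326 transcript rows. No header gives a unit. The values were taken as RPKM because 95.8% to 96.1% of low products of value and transcript length were whole multiples of a step, within 0.1 reads.

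The 23170 rows (13.8%) that name no gene were not used. A single row was kept per gene, RefSeq rows (NM_ or NR_) first and then the highest mean. A gene was tested where the mean of a group reached 1 RPKM. To log2(RPKM + 1), limma 3.58.1 (R 4.3.3) was fitted with an intensity trend on all 6 libraries. P-values are two-sided and adjusted by Benjamini-Hochberg over every gene tested, and 0.05 was the threshold. The fit was tested on simulated data. Levels carry the SD of 3 libraries and log2 changes the moderated SE. With 3 libraries a group, an exact permutation test of a single value cannot go below 0.1, so none was used. The similar read totals give similar precision across libraries. Reads per gene are printed only where the transcript length gave whole numbers in every library.

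The 37 genes, the pathway lists and the marker lists were chosen with earlier results of these data known. Full statistics are given for genes that passed and for those with no overlap of the groups and a log2 change of at least 0.4. Of the further pathway genes, those called, up to 8 by smallest adjusted p, were named by rule, and a gene that the rule also takes is not reported here. Ifi47, the ligands and the marker genes named fall outside that rule, being chosen with their values in view. Alternatives changed the scaling, filter, pseudocount, row per gene, trend, replicates and model. Replicate numbers did not pair the libraries.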

Additional observations from a re-analysis of the deposited data

How the results depend on the processing

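Of the 37 genes, 8 passed as reported. The count was 3 after median-of-ratios scaling, 3 with no filter, 1 with no filter and scaling together, and 5 of 24 tested by limma-voom on recovered reads. It ranged from 3 to 7 when a library was left out, and from 0 to 4 when a library was left out with scaling. The counts of 0, from limma without knockout replicate 1 or without wildtype replicate 1 after scaling, came with 21 and 16 genes at an unadjusted p under 0.05. The 2 alternatives that combine scaling with no filter or with a left-out library were chosen after seeing the data. Calls were lost in 3 of 21 alternatives for Parp9, 3 of 20 for Iigp1, 7 of 21 for Gbp3, 11 of 21 for Dtx3l, 15 of 20 for Gbp7, 15 of 21 for Xaf1, 16 of 21 for Ddx58 and 19 of 21 for Nlrc5. The median log2 change of 0.42 became 0.59 with a pseudocount of 0.1 RPKM and 0.58 with all rows of a gene summed. It ranged from 0.31 to 0.52 when a library was left out and from 0.22 to 0.43 with scaling as well, lowest without knockout replicate 3 in both cases. Further pathway genes called, 9 as reported, were 5 after scaling, 4 with no filter, 2 with both changes and 4 by limma-voom. They ranged from 3 to 11 when a library was left out and from 1 to 3 with scaling as well. Calls were lost in 11 of 21 alternatives for Lgals9, 12 of 20 for Cxcl9, 15 of 21 for Ifngr2, 16 of 21 for Ifi47 and 18 of 20 for Cmpk2. Over all genes, 887 calls became 477 by limma-voom, 455 to 849 when a library was left out and 347 to 715 with scaling as well (362, 347 and 445 for knockout replicates 1, 2 and 3, and 449 for wildtype replicate 1). Tap2 turned to -0.06 after scaling, to -0.06 with no filter and scaling, and to between -0.09 and -0.04 with a library left out and scaling. Stat2 turned to -0.07 and -0.01, and Dhx58 to -0.05 and -0.03, each in 2 of the fits with a library left out and scaling, and none of these 3 genes was called in any fit. The cause of these differences was not tested.

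The replicate numbers are not stated to pair libraries, and same-numbered libraries deviated together with correlations of 0.0919, 0.0384 and -0.0184. With the replicate number as a block, 7 of the 37 genes passed, 6 of them among the 8 reported, with Tap1 gained and Xaf1 and Nlrc5 lost. Genes with few reads, such as Oas1a with 2 to 15 per library, limit what can be shown at this depth.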

Other observations

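A small number of interferon targets outside the 37 genes, and the T and NK cell marker Gzmb, were high in knockout replicate 3 alone. They were chosen after their values were seen, and none of them passed. Cxcl10, a chemokine that attracts T cells, stood at 0.680, 1.09 and 5.79 RPKM in knockout replicates 1, 2 and 3 and at 0.5 to 0.895 RPKM in the wildtype libraries. Gbp11 stood at 0.392, 0.281 and 2.17 RPKM in knockout and at 0.316 to 0.341 RPKM in wildtype. Mx1, a dynamin-like antiviral GTPase, stood at 0.139, 0.0940 and 0.596 RPKM in knockout and at 0.0681 to 0.160 RPKM in wildtype. Gzmb, the granzyme of cytotoxic T and NK cells and a member of the marker list, stood at 0.132, 0 and 1.21 RPKM in knockout and at 0.0432 to 0.130 RPKM in wildtype. B2m, the light chain of class I molecules, stood at 361, 354 and 567 RPKM in knockout and at 351, 375 and 265 RPKM in wildtype, so replicate 3 was again the highest library. In each of these genes knockout replicates 1 and 2 lay near or within the wildtype range.

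Il10rb, a receptor chain shared by the interleukin 10 and type III interferon receptors, was the pathway gene that fell after scaling. It stood at 14.3, 15.2 and 14.4 RPKM in knockout and at 17.9, 18.5 and 16.7 RPKM in wildtype, all wildtype libraries above all knockout libraries. Its log2 change was -0.26 as deposited (limma adjusted p = 0.0700) and -0.36 after scaling (limma adjusted p = 0.0242). Limma-voom on recovered reads, which used another transcript row of the gene, gave a log2 change of only -0.04 (limma-voom adjusted p = 0.875). The fall thus depended on the row or method. Il10rb lies outside the rule for named genes and was chosen after its value was seen.

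All transcript rows of the 37 genes were also read for direction. Of 260 rows with a mean of at least 0.1 RPKM, 257 were higher in knockout and 3, all of Stat2, were higher in wildtype. Rows of a gene share reads and are not independent.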
